A study of Mus musculus with 134 samples.

Results

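The 9 genes described here are the G1 cyclins Ccnd1, Ccnd2, Ccnd3, Ccne1 and Ccne2 and the inhibitors of cyclin-dependent kinases (CDKs) Cdkn1a, Cdkn1b, Cdkn2a and Cdkn2b. They were chosen by name and not by a rule on their values, though with earlier results of these data known. They are 9 of the 25209 genes in the bulk count tables. In the single-cell tables, 9 of 17142 genes with H3K4me3 and 7 of 17622 genes with H3K27me3 are members, since Ccne2 and Cdkn2b are not listed in the latter. The study developed SET-seq, in which the cytoplasmic RNA of a cell is tagmentated as an mRNA/cDNA hybrid while antibody-guided Tn5 cuts the chromatin of the nucleus of the same cell, and applied it to mouse embryonic stem cells (mESCs) that divided beside Wnt3a beads. Expression was read from 54 bulk libraries in 27 conditions of 2 libraries each, and from 752 single cells.

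All bulk libraries are labelled E14, of strain 129/Ola, and the study grew ES-E14TG2a mESCs with serum and LIF. The in vitro libraries were made from total RNA, with 25, 50 or 100 ng/µl Tn5, with 300 ng, 3 ng or 30 pg RNA, or with tagmentation for 5, 10, 15 or 30 min at 16 °C or 37 °C. The ligation-based libraries were made from poly-A RNA by conventional RNA-seq. SET-seq libraries hold cytoplasmic RNA of 10, 100, 1000 or 10000 untreated cells without an antibody, or of 100, 1000 or 10000 cells whose nuclei were profiled with an H3K4me3 or H3K27me3 antibody. KO1 and KO2 are 2 Aebp2 KO clones, made by CRISPR/Cas9 with different sgRNAs. Each is 1 clone with 2 SET-seq libraries with the H3K27me3 antibody, and the number of cells is not given in the sources used here. The single cells were dissociated daughter cells of mESCs given Wnt3a-coated beads for 12 h, assayed with either antibody with each daughter's place, near the bead (proximal) or away from it (distal), on record.

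D-type cyclins bind CDK4 and CDK6, E-type cyclins bind CDK2, and both phosphorylate the retinoblastoma proteins, which releases E2F factors and lets a cell pass from G1 into S phase. Inhibitors of the CIP/KIP family (p21 from Cdkn1a, p27 from Cdkn1b) bind cyclin-CDK2 complexes, whereas inhibitors of the INK4 family (p16 from Cdkn2a, p15 from Cdkn2b) bind CDK4 and CDK6. mESCs are known for a short G1 phase, for high cyclin E activity and for a low level of INK4 inhibitors.

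In mm9, the build of the files, Ccnd1 lies on chromosome 7 from 152115836 to 152125830, Ccnd2 on chromosome 6 from 127075727 to 127101066 and Ccnd3 on chromosome 17 from 47642000 to 47736637. Ccne1 lies on chromosome 7 from 38883003 to 38892509, and Ccne2 on chromosome 4 from 11118498 to 11131926. The inhibitor genes lie on chromosome 17 from 29227924 to 29237667 (Cdkn1a), on chromosome 6 from 134870419 to 134875543 (Cdkn1b), and side by side on chromosome 4 from 88920377 to 88940523 (Cdkn2a) and from 88952198 to 88956941 (Cdkn2b). The counts cover all exons of a gene, so the p16 and p19Arf transcripts of Cdkn2a were not separated. The reads over Ccnd1, Ccnd3 and Ccne2 may be shared with the overlapping genes LTO1, Bysl and Ints8.

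Promoters are shown for 2 members of high level (Ccne1, Cdkn1a), for Cdkn1b, whose level differs most between protocols, and for Cdkn2a, which stayed near 0 in most libraries, since their letters had no part in the choice of genes. The 250 bases before the start were taken from the RefSeq table of GRCm38.p6, and each occurred once in NCBIM37, the assembly of mm9, at the position given here. The table held 9 promoters of 6 members and none for Ccnd1, Ccnd2 or Ccne2. Capitals mark matches on either strand to the GC box GGGCGG, to CCAAT, to the E2F letters TTTCCCGC, or to a pair of CATG letters 6 bases apart, as in sites of p53. The starts shown are the only one of Ccne1 and of Cdkn1b and the upstream one of 2 for Cdkn1a and for Cdkn2a.
Ccne1 promoter, chr7:38892510-38892759, minus strand: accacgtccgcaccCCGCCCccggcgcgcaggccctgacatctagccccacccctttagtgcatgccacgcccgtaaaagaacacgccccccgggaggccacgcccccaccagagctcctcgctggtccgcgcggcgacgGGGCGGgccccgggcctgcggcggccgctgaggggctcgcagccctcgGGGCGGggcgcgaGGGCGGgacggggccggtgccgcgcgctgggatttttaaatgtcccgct
Cdkn1a promoter, chr17:29227674-29227923, plus strand: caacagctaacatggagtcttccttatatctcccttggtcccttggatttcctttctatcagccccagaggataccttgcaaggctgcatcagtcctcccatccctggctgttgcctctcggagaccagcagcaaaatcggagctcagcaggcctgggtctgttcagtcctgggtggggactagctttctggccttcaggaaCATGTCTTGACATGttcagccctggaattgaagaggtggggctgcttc
Cdkn1b promoter, chr6:134870169-134870418, plus strand: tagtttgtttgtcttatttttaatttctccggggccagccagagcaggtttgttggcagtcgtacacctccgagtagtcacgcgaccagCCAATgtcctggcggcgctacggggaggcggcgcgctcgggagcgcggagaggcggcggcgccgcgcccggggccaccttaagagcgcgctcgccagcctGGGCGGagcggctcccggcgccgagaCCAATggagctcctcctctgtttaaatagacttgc
Cdkn2a promoter, chr4:88940524-88940773, minus strand: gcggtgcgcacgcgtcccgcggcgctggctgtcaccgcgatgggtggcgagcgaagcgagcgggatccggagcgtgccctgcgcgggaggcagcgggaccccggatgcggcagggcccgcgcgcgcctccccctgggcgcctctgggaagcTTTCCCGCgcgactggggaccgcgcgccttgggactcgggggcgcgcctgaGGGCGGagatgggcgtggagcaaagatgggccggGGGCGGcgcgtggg

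The Ccne1 promoter held 34 CpG dinucleotides and 4 GC boxes, and 3.53% of all 32851 promoters of the same length had as many CpG. The upstream start of Cdkn2a had 40 CpG, 2 GC boxes and the E2F letters 99 bases before the start. Its other start, at chr4:88928097-88928346 and not printed, had 7 CpG (46.3% of promoters have as many), no GC box and no E2F letters. Cdkn1b held 28 CpG and 2 CCAAT matches, and the upstream start of Cdkn1a held 2 CpG and 1 CATG pair, 48 bases before the start. The other start of Cdkn1a, at chr17:29230464-29230713, had 19 CpG and 2 GC boxes. Of all promoters, 32.7% held the GC box, 33.8% CCAAT, 0.895% the E2F letters and 0.49% the CATG pair. These are matches of letters and not measured sites. Since the counts do not separate the transcripts of a gene, no level can be assigned to either start of Cdkn1a or Cdkn2a. The starts of Cdkn2a were not assigned to p16 or p19Arf here, so the printed promoter is not to be read as that of p16.

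Libraries held between 235040 and 21520982 counts (median 5900098). The precursor rRNA gene Rn45s made up 1.54% to 84.6% of a library, so CPM (counts scaled to the total of the library) and RPKM (CPM per kilobase of exon) were calculated without it. All 8 pluripotency markers were listed in every group of libraries, with a summed level of 3505 to 8536 CPM. Of the 8 fibroblast markers, Fn1, which mESCs also make, gave most of the summed level. That level was 1037 to 2904 CPM in vitro, 1809 to 1870 CPM in the ligation-based libraries, 619 to 630 CPM in KO1, 423 to 433 CPM in KO2 and 105 to 457 CPM in SET-seq of WT cells, while Dcn was at 0 in vitro at both temperatures, in both clones and in the ligation-based libraries. The 7 primitive endoderm markers summed to 1.38 to 37.1 CPM, and the 5 neural markers to 0 to 198 CPM. Hprt splits the libraries in another way. ES-E14TG2a is known to be Hprt-deficient, and Hprt was at 0 to 1.29 CPM in vitro and at 0 to 2.14 CPM in the KO clones, but at 66.2 to 485 CPM in SET-seq of WT cells and at 181 to 184 CPM in the ligation-based libraries. The WT SET-seq and ligation-based libraries thus go against that cell line in this gene, and any difference of cell stock cannot be told apart from the difference between KO and WT, or between SET-seq or ligation-based and in vitro libraries.

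Per length of exon, Ccne1 was the highest member and Cdkn1a the second in most libraries. Ccne1, whose product activates CDK2 at the G1/S transition, had 83.6 to 505 RPKM (median 166) and ranked first in 44 of 54 libraries and second in the other 10. Cdkn1a, which encodes p21, had 52.2 to 205 RPKM (median 120) and ranked first in 10 and second in 40. Ccnd1 and Ccnd3 followed with medians of 38.9 and 33.8 RPKM, over ranges of 23.5 to 69.4 and 11.4 to 139 RPKM. The remaining members stayed low in most libraries. Cdkn1b had a median of 7.54 RPKM, over a range of 0 to 100, the widest among these remaining members. Cdkn2b had a median of 3.74 RPKM, Cdkn2a of 1.73, Ccne2 of 1.05 and Ccnd2 of 0.586 RPKM. Over all 54 libraries, Ccne1 had 92510 counts and Ccnd2, Ccne2, Cdkn2a and Cdkn2b had 2018, 1246, 1069 and 1701, and these 4 were at 0 in 4, 6, 10 and 3 libraries. A library without a count allows up to 3 counts, and this floor, like the intervals of shares below, covers counting error only.

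**Figure D1:**
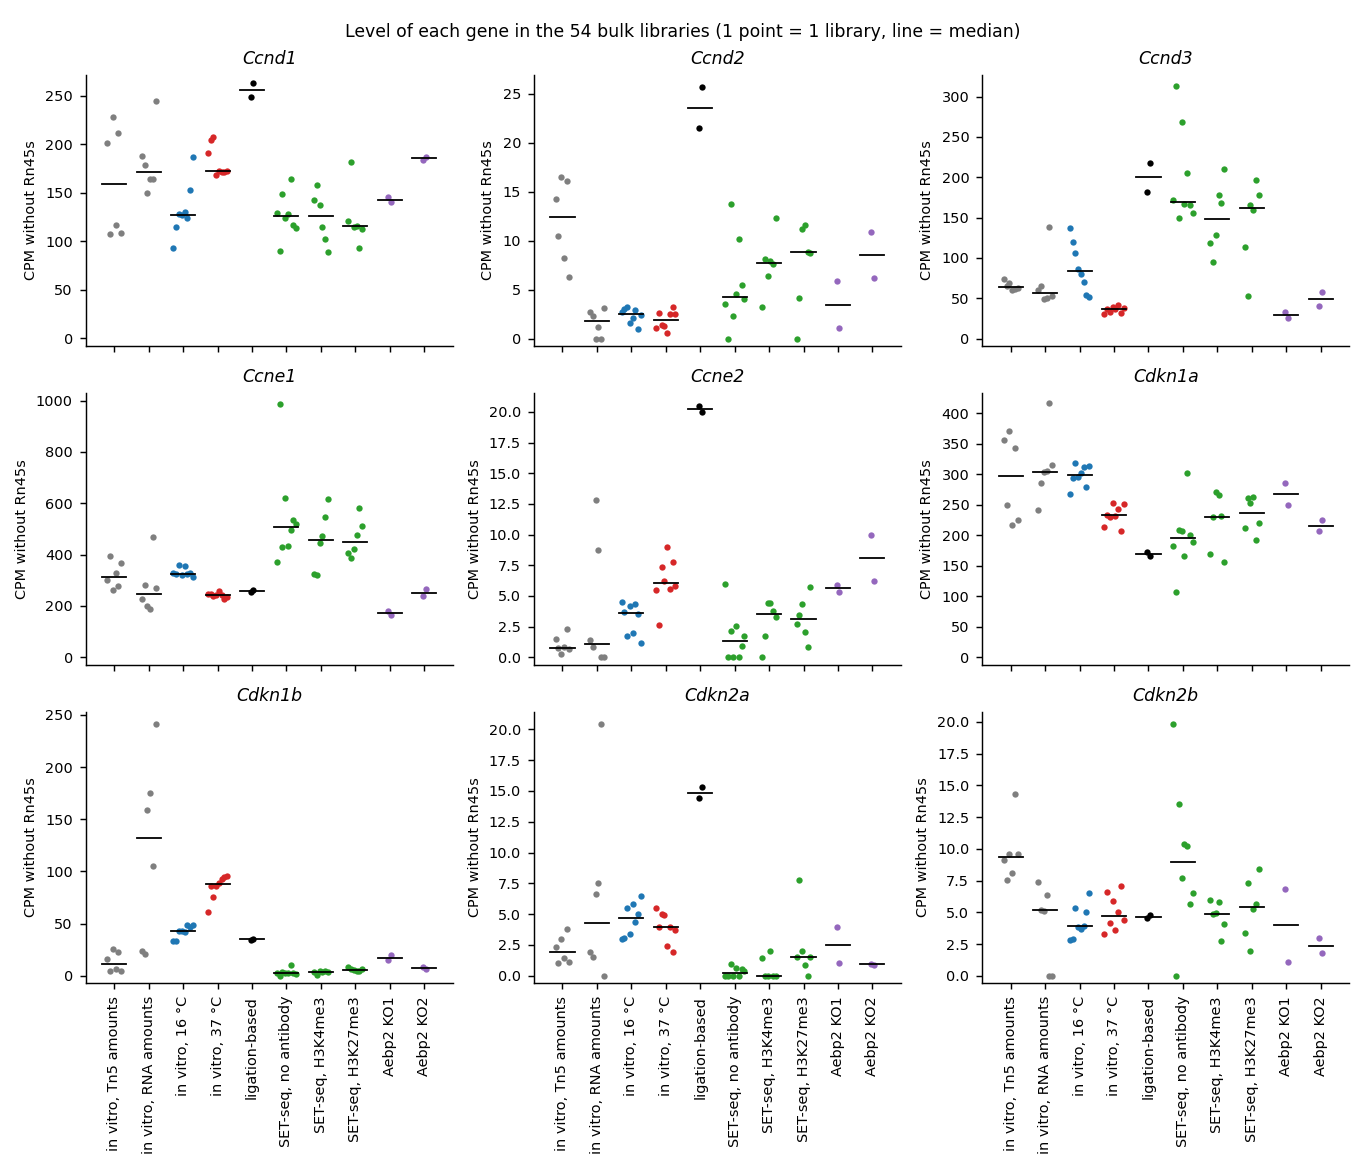
CPM of the 9 members, without Rn45s, in every bulk library, 1 panel per gene, with libraries grouped along the horizontal axis and the line at the median of a group. Ccnd3 and Ccne1 are low and Ccnd1 is higher in KO1 and KO2 than in SET-seq with H3K27me3. In vitro, Cdkn1b is above SET-seq of WT cells except in some libraries of the Tn5 amounts.

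When the 27 conditions were put in order for each gene, few neighbours were apart by more than their own libraries. Of 26 gaps between neighbours, 8 were wider than that spread for Ccne1 and for Cdkn1b, 4 for Ccnd3, 3 for Ccne2, 2 each for Ccnd2 and Cdkn1a, and 1 each for Ccnd1, Cdkn2a and Cdkn2b. The ends of the order were far apart. Ccnd1 ran from 95.8 ± 9.14 CPM (SD, n = 2) with H3K4me3 and 10000 cells to 256 ± 10.4 CPM in the ligation-based libraries. Ccnd3 ran from 29.0 ± 4.75 CPM in KO1 to 243 ± 99.8 CPM in SET-seq of 10 cells, and Ccne1 from 171 ± 10.6 to 678 ± 438 CPM in the same conditions. The high ends in 10 cells rest on 2 libraries far from each other, of which replicate 2 was the shallowest of all, with 188275 counts without Rn45s.

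The D-type cyclins, which link growth signals to CDK4 and CDK6, changed places between protocols. Ccnd2 never gave more than 3.25% of their summed RPKM in any library. Ccnd1 was the highest D cyclin in 26 libraries and Ccnd3 in 28. At 37 °C, Ccnd1 was the highest in 8 of 8 libraries, with 70.2% to 78.5% of the D cyclin RPKM, and in KO1 and KO2 it had 71.5% to 76.2% and 64.9% to 70.9%. In SET-seq without antibody, Ccnd3 was the highest in 8 of 8 libraries, with 61.4% to 85.4%, and it was the highest in 6 of 6 libraries with H3K4me3, in 5 of 6 with H3K27me3 and in both ligation-based libraries. The libraries at 16 °C were split, with Ccnd3 the highest in 5 of 8.

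**Figure D2:**
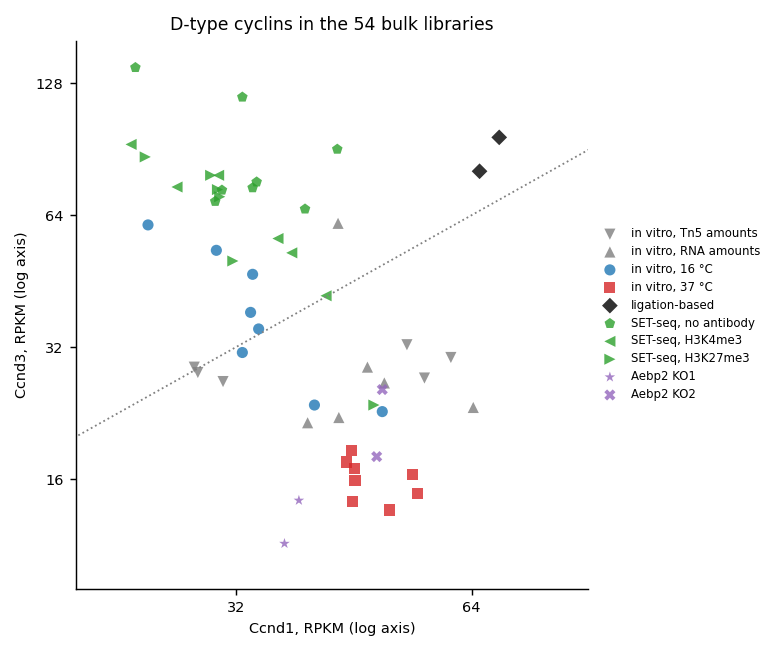
RPKM of Ccnd3 (vertical, log axis) against RPKM of Ccnd1 (horizontal, log axis) in the 54 bulk libraries, coloured by group, with a dotted line where both are equal. The 37 °C and KO libraries lie below the line and the SET-seq libraries without antibody above it.

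Tagmentation temperature was compared to find the condition of the in vitro reaction, over 16 libraries of total RNA with time as a factor. At 37 °C, Cdkn1b, Ccne2 and Ccnd1 were higher and Ccnd3, Ccne1 and Cdkn1a lower than at 16 °C, so 6 of 9 members were called in edgeR's quasi-likelihood test (Benjamini-Hochberg adjusted p below 0.05). Of all 11788 genes tested, 63.4% were called, 32.0% higher and 31.4% lower, so the share of members is near that of all genes. The median log2 fold change was -0.14 over the members and 0.00 over all genes. The share of Rn45s was 11.8% to 25.1% at the lower and 33.0% to 40.7% at the higher temperature, and its part in these differences was not tested. The study describes the pair of libraries of each temperature and time as biologically independent, and the pair of each KO clone as separate experiments. For the other bulk libraries no such statement was found in the labels, so their p-values measure the spread between libraries, which may be technical.

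Ccnd3 had 51.4, 83.2 and 137 CPM as lowest, median and highest of 8 libraries at 16 °C and 30.8, 36.6 and 42.1 CPM at 37 °C. Every library at 37 °C was below every library at 16 °C, with a log2 fold change of -1.09 (SE 0.11, adjusted p = 1.87e-09 in edgeR). Ccnd1 had 93.6, 127 and 187 CPM at 16 °C and 168, 172 and 207 CPM at 37 °C. The groups overlapped in 1 library at 16 °C, and the log2 fold change was 0.53 (SE 0.09, adjusted p = 7.72e-06). Ccne1 had 311, 325 and 361 CPM at 16 °C and 225, 243 and 258 CPM at 37 °C, with no overlap and a log2 fold change of -0.40 (SE 0.05, adjusted p = 2.42e-07). The other E-type cyclin, Ccne2, went the opposite way at a far lower level, with 1.18, 3.61 and 4.52 CPM at 16 °C and 2.65, 6.03 and 9.01 CPM at 37 °C. Its log2 fold change of 1.02 (SE 0.24, adjusted p = 0.000552) was 0.63 without replicate 1 (adjusted p = 0.084) and 0.14 at 5 min alone (adjusted p = 0.907).

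Among the inhibitors, Cdkn1b was 33.5, 43.0 and 49.1 CPM (lowest, median, highest) at 16 °C and 61.5, 87.5 and 95.5 CPM at 37 °C. All 8 libraries at 37 °C were above all 8 at 16 °C, and the log2 fold change of 1.05 (SE 0.07, adjusted p = 2.18e-13) was the largest rise of a member. Cdkn1a, at 267, 299 and 318 CPM against 206, 233 and 252 CPM, fell without overlap by 0.30 on the log2 scale (SE 0.06, adjusted p = 4.36e-05). At 5 min alone its change of -0.25 did not pass (adjusted p = 0.143). Cdkn2a, Cdkn2b and Ccnd2 gave log2 fold changes of -0.14, 0.27 and -0.31 and did not pass the test.

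The 16 °C libraries also changed with time, which was tested after the values had been seen. Ccnd3 had 137 and 120 CPM after 5 min, 106 and 86.7 after 10 min, 79.6 and 70.2 after 15 min and 53.4 and 51.4 after 30 min. Each time lay below the one before it, with no overlap. At 37 °C the same gene had 30.8 and 37.1 CPM after 5 min and 32.2 and 38.1 after 30 min, without such an order. From 5 to 30 min at 16 °C, Ccnd3 fell by 1.20 on the log2 scale (SE 0.15, adjusted p = 3.89e-06), and 3 of 9 members were called, 2 higher and 1 lower, where 14.6% of 12297 genes were, 8.16% higher and 6.48% lower.

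Ccnd1 moved the opposite way in the same libraries, from 93.6 and 115 CPM after 5 min to 153 and 187 CPM after 30 min at 16 °C. Its log2 fold change was 0.79 (SE 0.13, adjusted p = 7.68e-05), whereas at 37 °C it had 191 and 204 CPM after 5 min and 171 and 172 CPM after 30 min. Cdkn1b rose by log2 0.60 at 16 °C (SE 0.15, adjusted p = 0.00773), which did not pass without 1 of the 5 min libraries or either 30 min library (adjusted p = 0.0559 to 0.11). Ccne1 had a log2 fold change of 0.06 over the same time (adjusted p = 0.754). The difference of the time effect between the temperatures (37 °C minus 16 °C) passed for Ccnd1, at -0.94 (SE 0.19, adjusted p = 0.0044), and for Ccnd3, at 1.35 (SE 0.28, adjusted p = 0.00515), where 2.81% of all genes were called, 1.19% higher and 1.63% lower. The former was lost without 30 min replicate 2 at 16 °C (adjusted p = 0.0622) and the latter without 5 min replicate 1 or 30 min replicate 2 at 37 °C (adjusted p = 0.0658 and 0.0966).

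**Figure D3:**
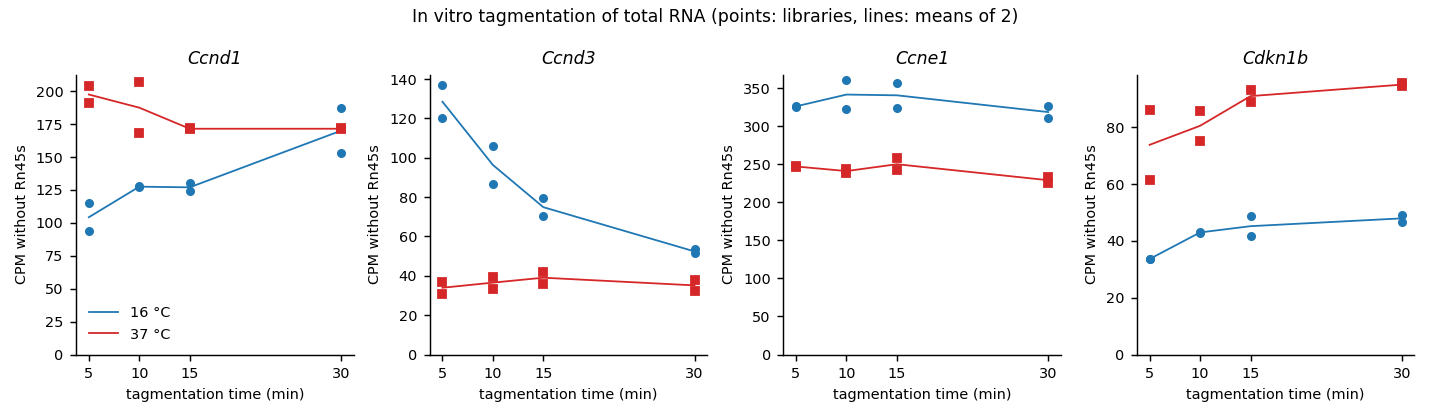
CPM of Ccnd1, Ccnd3, Ccne1 and Cdkn1b against tagmentation time in minutes, at 16 °C (blue circles) and 37 °C (red squares), 1 point per library, with lines through the means of 2 libraries. Ccnd3 falls with time at 16 °C and Ccnd1 rises, while Cdkn1b is higher and Ccne1 lower at 37 °C at every time.

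The amounts of Tn5 and RNA were described without a test. With Tn5, the replicates stood apart more than the amounts. Ccnd1 had 201, 228 and 211 CPM in replicate 1 of 25, 50 and 100 ng/µl and 107, 117 and 109 CPM in replicate 2. Cdkn1b was higher in replicate 1 at every amount, with up to 25.6 CPM, than in replicate 2, with 4.8, 6.39 and 4.51 CPM. Ccne1 was lower in replicate 1 (300, 263 and 279 CPM) than in replicate 2 (393, 326 and 365 CPM). With less RNA, Cdkn1b was higher, at 24.2 and 21.3 CPM from 300 ng, 159 and 175 CPM from 3 ng, and 105 and 241 CPM from 30 pg. Ccne2 was at 1.36 and 0.853 CPM from 300 ng, 12.8 and 8.76 CPM from 3 ng, and at 0 in both libraries from 30 pg, where Ccnd3 had 138 and 52.6 CPM. The 30 pg libraries thus scattered widely, and replicate 2 had the fewest counts of any in vitro library without Rn45s, 323449.

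The clones labelled Aebp2 KO were compared with WT SET-seq of 10000 cells with the same antibody. Aebp2 encodes a subunit of the H3K27 methyltransferase complex PRC2. The Aebp2 RNA itself was at 15.7 and 15.0 CPM in KO1, at 49.7 and 30.2 CPM in KO2 and at 65.5 and 76.0 CPM in WT. It was lowest in KO1 and still present in both clones. Over all cell numbers, WT SET-seq with the same antibody had 34.7 to 76.0 CPM of Aebp2 and that without antibody 0 to 52.2 CPM, so KO2 overlaps WT in this gene. A small deletion or insertion can leave the RNA of a gene, and the counts do not show the changed allele. All 4 KO libraries had 935126 to 1124026 counts without Rn45s, and Rn45s took 48.8% to 56.7% of their totals.

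In the KO clones, Ccnd3 and Ccne1 were far lower and Ccnd1 higher than in WT. Ccnd3 had 32.4 and 25.7 CPM in KO1, 40.8 and 57.8 CPM in KO2 and 196 and 178 CPM in WT. All KO libraries lay below both WT libraries, and Ccnd3 fell by 2.15 on the log2 scale (SE 0.17, adjusted p = 1.47e-10 in edgeR). Ccne1 had 179 and 164 CPM in KO1, 237 and 266 CPM in KO2 and 583 and 511 CPM in WT. It too showed no overlap and fell by 1.25 (SE 0.11, adjusted p = 9.49e-10). Ccnd1 had 146 and 140 CPM in KO1, 184 and 187 CPM in KO2 and 92.9 and 113 CPM in WT, with a log2 fold change of 0.78 (SE 0.14, adjusted p = 3.23e-05). The p-values of KO against WT take their spread from the libraries within each group. The spread between the clones does not enter them, so they do not measure how other KO clones would vary. The pluripotency markers moved with the same split, with 4 of 8 lower and 0 higher in the clones, and Fn1 was higher (log2 fold change 1.15), and their part in the result was not tested. In bulk RNA, a smaller share of cells in a phase and less RNA per cell cannot be told apart.

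Of the inhibitors, Cdkn1a had 285 and 249 CPM in KO1, 207 and 224 CPM in KO2 and 192 and 219 CPM in WT. KO2 overlapped WT, and the log2 fold change of 0.35 (SE 0.12, adjusted p = 0.0142) was not called in 11 of the alternatives, among them DESeq2 (adjusted p = 0.0613) and KO2 alone (0.25, adjusted p = 0.144). Cdkn1b had 14.7 and 20.3 CPM in KO1, 7.95 and 6.23 CPM in KO2 and 4.85 and 6.61 CPM in WT. KO1 was above both others, and the log2 fold change over both clones was 1.02 (interval 0.13 to 1.90, adjusted p = 0.0567), or 1.62 with KO1 alone (adjusted p = 0.00742). Ccnd2, Ccne2, Cdkn2a and Cdkn2b had at most 10.9 CPM in any of these libraries and were under the filter on low counts.

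Thus 4 of the 5 members tested were called, 2 higher and 2 lower, where 57.3% of 9523 genes were called, 27.8% higher and 29.5% lower. The comparison depended on the libraries taken as WT. Against the in vitro libraries of 37 °C and 5 min, which like the KO libraries have Hprt near 0, the log2 fold change of Ccnd1 was -0.25 (adjusted p = 0.19), of Ccnd3 0.19 (adjusted p = 0.606) and of Ccne1 -0.23 (adjusted p = 0.222), and only Cdkn1b was called, at -2.69 (adjusted p = 1.58e-09). Against those of 300 ng RNA, Ccnd3 was still lower, at -0.85 (adjusted p = 0.000656), as was Ccne1, at -0.42 (adjusted p = 0.0146), while Ccnd1 was at -0.30 (adjusted p = 0.086). Those references are total RNA rather than cytoplasmic RNA, and both were chosen after the values had been seen. With WT of 100, 1000 and 10000 cells, Ccnd1 was at 0.41 and not called (adjusted p = 0.081), and Ccnd3 and Ccne1 were still called.

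The clones also differed from each other. Ccnd3 and Ccne1 were lower in KO1 than in KO2, by log2 fold changes of -0.87 (SE 0.27, adjusted p = 0.0358) and -0.66 (SE 0.15, adjusted p = 0.00418), so 2 of 5 members were called, where 11.8% of all genes were, 5.88% higher and 5.89% lower. The values of Ccnd3 and of Ccne1 given above did not overlap between the clones. The call of Ccnd3 was lost under DESeq2 (adjusted p = 0.108), with the replicate number as a block (adjusted p = 0.0607), without the filter (adjusted p = 0.0524), and without each library other than KO2 replicate 1 (adjusted p = 0.0602 to 0.31), and that of Ccne1 without KO1 replicate 2 (adjusted p = 0.0948). Ccnd1 did not pass, at -0.47 (adjusted p = 0.056), but passed without KO2 replicate 1 (-0.51, adjusted p = 0.0355). Against WT, Ccnd1, Ccnd3 and Ccne1 were called with each clone alone, at 0.55, -2.58 and -1.58 with KO1 and 1.02, -1.71 and -0.92 with KO2.

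**Figure D4:**
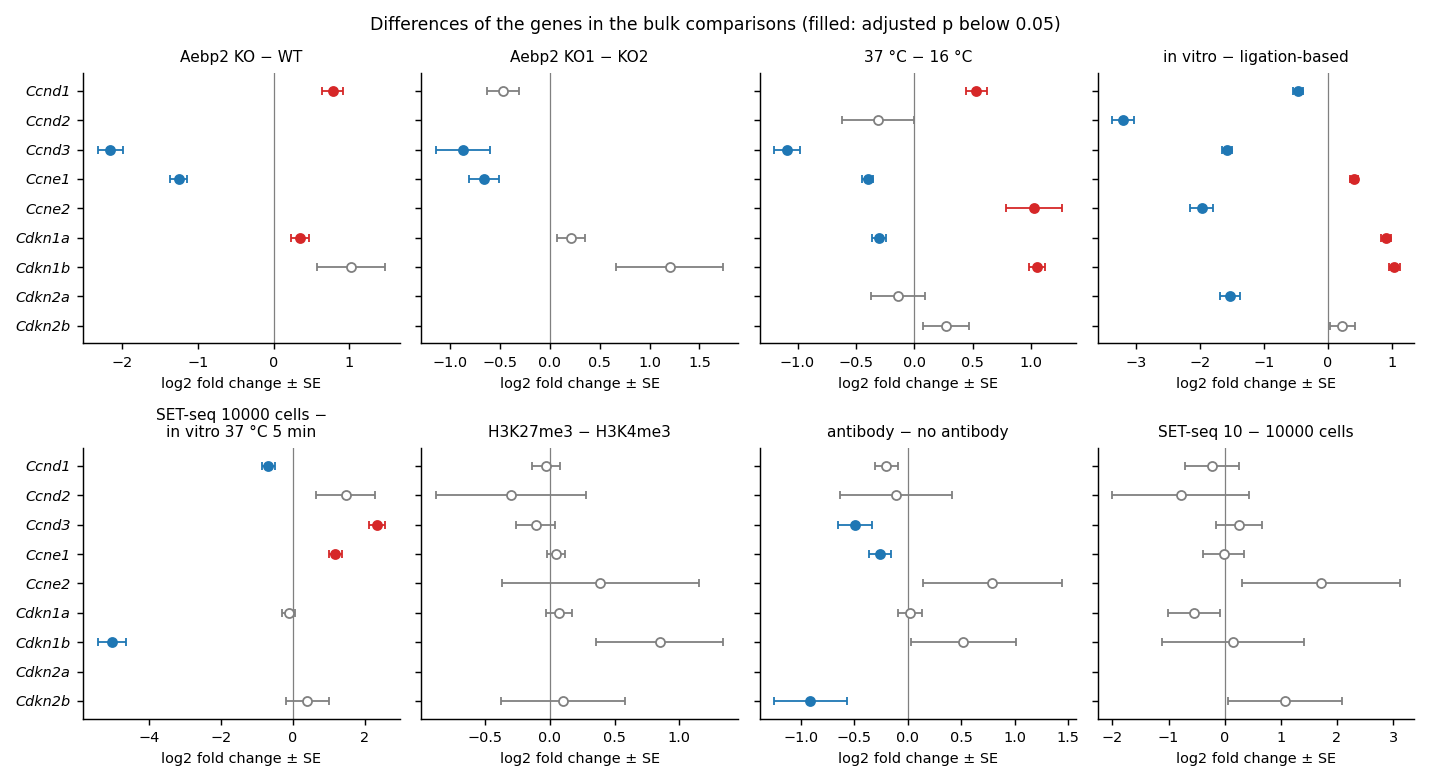
Log2 fold changes of the members with their standard errors in 8 comparisons, 1 panel each, as fitted by edgeR, with filled points for an adjusted p below 0.05 (red higher, blue lower) and open grey points otherwise. Ccnd3 lies furthest below 0 for KO against WT, and Cdkn1b furthest below 0 for SET-seq against in vitro libraries.

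In vitro tagmentation of total RNA at the 8 temperatures and times was set against ligation-based RNA-seq, the conventional method. Of 9 members, 8 were called, 3 higher and 5 lower, where 81.0% of 12880 genes were called, 38.9% higher and 42.1% lower. Ccnd2, Ccne2, Ccnd3 and Cdkn2a differed most, all lower in vitro. Ccnd2 had 21.5 and 25.7 CPM in the ligation-based libraries and at most 3.22 CPM in the 16 in vitro ones, with a log2 fold change of -3.20 (SE 0.17, adjusted p = 9.5e-16). Ccne2 was at 20.5 and 20.0 CPM with ligation and at most 9.01 CPM in vitro, and its log2 fold change was -1.97 (SE 0.18). Cdkn2a was at 14.4 and 15.3 CPM with ligation and at most 6.5 CPM in vitro, and its log2 fold change was -1.53 (SE 0.16). None of these 3 overlapped. Ccnd3, at 182 and 218 CPM with ligation, had a log2 fold change of -1.58 (SE 0.08). Cdkn1b, at 34.6 and 35.4 CPM, Cdkn1a, at 173 and 166 CPM, and Ccne1, at 254 and 261 CPM with ligation, had higher levels in vitro, by 1.04, 0.91 and 0.41 on the log2 scale (SE 0.09, 0.08 and 0.07). For Ccne1 the groups overlapped, and 7 of 8 libraries at 37 °C were below both ligation-based libraries in CPM. Cdkn1b overlapped too, since both libraries of 16 °C and 5 min (33.5 and 33.8 CPM) were below both ligation-based ones. Ccnd1 was at 249 and 263 CPM with ligation, above every in vitro library, with a log2 fold change of -0.47 (SE 0.08). At 37 °C and 5 min alone, the values of Ccnd1 and Ccne1 were -0.14 and 0.18 and did not pass (adjusted p = 0.27 and 0.14).

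Cytoplasmic RNA of SET-seq with 10000 cells was compared with total RNA tagmentated in vitro at 37 °C for 5 min. Cdkn1b was far lower in SET-seq, at 2.82 and 1.27 CPM against 61.5 and 86.2 CPM, with a log2 fold change of -5.02 (SE 0.40, adjusted p = 2.2e-05). The same gene stayed at 0 to 10.2 CPM, with a median of 3.7, in all 20 WT SET-seq libraries, below every one of the temperature series. The in vitro libraries of the Tn5 amounts, at 4.51 to 25.6 CPM, overlapped that range. Ccnd3 was higher in SET-seq, at 165 and 156 CPM against 30.8 and 37.1 CPM, by a log2 fold change of 2.33 (SE 0.23, adjusted p = 5.03e-05). Ccne1 was higher too, at 533 and 518 CPM against 246 and 248 CPM, by 1.17 (SE 0.18, adjusted p = 0.000582). Ccnd1, at 117 and 114 CPM against 191 and 204 CPM, had a log2 fold change of -0.69 (SE 0.18, adjusted p = 0.0101), which did not pass without in vitro replicate 1 or 2 (adjusted p = 0.0536 and 0.0876). In all, 4 of 7 members tested were called, where 49.8% of 10844 genes were. Fn1 was lower in the same SET-seq libraries (log2 fold change -1.60), and its part was not tested.

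Hprt differs between those libraries, so the ligation-based libraries, in which Hprt is present, were also used as total RNA, after the values had been seen. Cdkn1b remained lower in SET-seq, at -3.77 (adjusted p = 0.000219), and Ccne1 higher, at 1.30 (adjusted p = 0.000361). Ccnd3 was at -0.05 (adjusted p = 0.78), so its difference was seen against in vitro tagmentation and not against ligation. Cdkn2a and Ccne2 were lower in SET-seq than with ligation, at -4.65 and -3.73 (adjusted p = 0.000182 and 0.000198), and Cdkn2a was at 0 in 9 of 20 WT SET-seq libraries. Cdkn1a was higher, at 0.47 (adjusted p = 0.0159), and Ccnd2 lower, at -2.03 (adjusted p = 0.0008). Ccnd1 was lower, at -0.88 (adjusted p = 0.00123), and Cdkn2b higher, at 0.65 (adjusted p = 0.0401). These are 8 members called, in a fit that called 9078 genes. The share of all genes tested that this is was not worked out, so the count is not read as a result about the members.

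The antibody used on the nucleus was compared within SET-seq. Between H3K27me3 and H3K4me3, 0 of 8 members tested and 0 of 11616 genes (0.0%) were called in edgeR, with 361 genes at an unadjusted p below 0.05 and 0 called by DESeq2. The intervals were narrow for the abundant members. The log2 fold change was 0.05 for Ccne1 (-0.09 to 0.19), -0.03 for Ccnd1 (-0.23 to 0.18), 0.07 for Cdkn1a (-0.12 to 0.27) and -0.11 for Ccnd3 (-0.40 to 0.17). For Cdkn1b, at 1.16 to 8.12 CPM in these libraries, it was 0.85 (-0.11 to 1.81).

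With either antibody against none, at matched cell numbers, 3 of 8 members were lower and 0 higher, where 41.2% of 11709 genes were called and 20.7% were lower. Ccnd3 had 94.7 to 210 CPM with H3K4me3 and 53.3 to 196 CPM with H3K27me3, against 149 to 313 CPM in all SET-seq libraries without antibody. These ranges overlapped, and its log2 fold change was -0.49 (SE 0.16, adjusted p = 0.0176). Ccne1 was at -0.26 (SE 0.10, adjusted p = 0.0295) and Cdkn2b at -0.91 (SE 0.34, adjusted p = 0.031). Without replicate 1, none of the 3 was called (adjusted p = 0.121, 0.314 and 0.777), and without replicate 2 Cdkn2b alone was. Ccne1 was not called with the replicate number as a block (adjusted p = 0.052), and without the filter neither Ccne1 nor Cdkn2b was (adjusted p = 0.107 and 0.106).

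SET-seq without antibody was compared between cell numbers. From 10 cells, Ccne1 had 369 and 988 CPM and Ccnd3 172 and 313 CPM, and from 10000 cells they had 533 and 518 CPM and 165 and 156 CPM. Cdkn1a had 182 and 106 CPM from 10 cells and 200 and 189 CPM from 10000. The low and high library of 10 cells lay on both sides of the pair of 10000 cells for Ccne1. No member of 8 tested and none of 11916 genes (0.0%) was called in edgeR, with 2051 genes at an unadjusted p below 0.05 and 224 called by DESeq2. The log2 fold change was -0.02 for Ccne1 (interval -0.73 to 0.70), 0.26 for Ccnd3 (-0.53 to 1.06) and -0.55 for Cdkn1a (-1.46 to 0.36). The median over all genes was -0.38 there. Without 10 cells replicate 1, Cdkn1a was called, at -1.44 (adjusted p = 0.0218). A difference of less than these intervals was not detectable with 2 libraries.

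Other genes of the pathway were counted from lists chosen for their function. In KO against WT, 57.3% of all genes were called, 27.8% higher and 29.5% lower, and the shares below are to be read beside these. There, of the partner kinases Cdk6 was higher (log2 fold change 1.61), Cdk4 lower (-0.81) and Cdk2 not called. Among 13 pocket protein and E2F genes, 4 were higher and 5 lower, with E2f7 at 1.63 and E2f3 at 1.19, and the retinoblastoma gene Rb1 at -1.46 and E2f4 at -1.15. Of 14 regulators, 4 were higher and 3 lower, among them the phosphatase gene Cdc25a at 1.21, the p27 ligase subunit Skp2 at 1.01 and the p53 ligase Mdm2 at -1.12. Of 16 S-phase genes, 6 were higher and 2 lower, with the replicative helicase subunits Mcm7, Mcm4 and Mcm3 at 1.16, 0.95 and 0.79. Of 8 mitotic genes, 6 were higher and 1 lower, led by Mki67 at 2.40 and Top2a at 1.63. Cdkn1a is a target of p53, and of 13 other p53 targets tested 2 were higher and 7 lower, with Perp at -5.52 and Ccng1 at -1.30. The median log2 fold change was 0.77 over the mitotic genes and -0.95 over the p53 targets, beside 0.35 over the members tested and -0.02 over all genes. Hprt and Rn45s differ between the same libraries, and their part in these counts was not tested.

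Between the clones, where 5.89% of all genes were lower in KO1, 9 of 16 S-phase genes were lower and 0 higher, beside the lower Ccne1 and Ccnd3. Tk1 was at -0.91, Cdc6 at -0.75, Mcm4 at -0.72 and Mcm6 at -0.71, and Cdk4 was at -0.50. The median over the S-phase genes was -0.46, and over all genes -0.01. Between 37 °C and 16 °C, where 32.0% of all genes were higher and 31.4% lower, 5 of 16 S-phase genes were higher and 6 lower, 6 of 13 pocket protein and E2F genes higher and 2 lower, 7 of 14 regulators higher and 3 lower and 4 of 8 mitotic genes higher and 2 lower. The INK4 inhibitors Cdkn2c and Cdkn2d were at 1.21 and -1.12. Against ligation-based RNA-seq, where 42.1% of all genes were lower in vitro and 38.9% higher, 9 of 13 pocket protein and E2F genes, 10 of 16 S-phase genes and 10 of 14 regulators were lower in vitro, and 2, 5 and 3 were higher. The mitotic genes went the other way, with 5 of 8 higher in vitro and 2 lower. So did the other CDK inhibitors, with 2 of 3 higher and 0 lower. Of 13 p53 targets tested, 3 were higher and 9 lower, and of 3 partner kinases 0 were higher and 1 lower. None of the genes of these lists was called between the antibodies or between 10 and 10000 cells in edgeR.

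Over the 27 conditions, the genes whose mean level followed each member most closely were found among 12741 genes with a mean of at least 1 CPM, by Pearson's r of log2(CPM + 1) of the conditions. The conditions share protocols, stocks and depth, so these are descriptions. Cdkn1b was followed by Acsl3 (r = 0.973), Tmf1 (0.949) and Retreg1 (0.947), and Ccnd3 by Gdf3 (0.952), Rbck1 (0.92) and Ssr2 (0.919). Ccne1 was followed by Josd2 (0.917), Trappc2l (0.916) and Hilpda (0.906), and Ccnd1 by Zc3h18 (0.855), Top1 (0.847) and Nop14 (0.846). For Cdkn1a they were Gmeb1 (0.863), Twf2 (0.86) and AI467606 (0.852), and for Cdkn2a Sox2 (0.889), Lmnb1 (0.882) and Tstd2 (0.882). For Ccnd2 they were Ncoa5 (0.847), Hr (0.837) and Ipo13 (0.831), for Ccne2 Pola1 (0.872), Cnot6l (0.865) and Trim24 (0.86), and for Cdkn2b Cenps (0.884), Dnajc17 (0.878) and Zfp64 (0.864). Among the members, Ccnd3 and Ccne1 had the highest r (0.851) and Ccne1 and Cdkn1b the lowest (-0.699).

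Single cells were described next, from read counts without molecular identifiers. Of 384 cells with H3K27me3 in 10 experiments 335 passed the filter of 1000 to 5000 genes, and of 368 cells with H3K4me3 in 6 experiments 210 passed, with medians of 198020 and 93762.5 reads. The 752 cells used 96 barcodes, 80 of which occur in more than 1 library. In H3K27me3 experiments 8 to 10, the 165 passing cells had 0 reads of Pou5f1, a marker of pluripotent cells. They are not alone in this, since 4 of 10 H3K27me3 and 1 of 6 H3K4me3 experiments had no Pou5f1 read in passing cells. Experiments 8 to 10 stand apart from the other H3K27me3 experiments in Ccne1 and Ccnd3, so values are given with and without them.

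With H3K27me3, Ccne1 had at least 1 read in 116 of 335 cells (34.6%, 95% Wilson interval 29.7% to 39.9%), or in 60.0% of the 170 cells of experiments 1 to 7 and 8.48% of the 165 cells of experiments 8 to 10. With H3K4me3 it was read in 119 of 210 cells (56.7%). It was the member read in most cells of both tables. Ccnd3 was read in 28.8% of cells in experiments 1 to 7, in 1.82% in experiments 8 to 10 and in 33.3% with H3K4me3. For Ccnd1 the shares were 15.9%, 0.606% and 23.3%, and for Ccnd2 8.82%, 1.82% and 4.76%. Ccne2 was read in 3 of 210 cells with H3K4me3 (1.43%). By experiment, the share for Ccne1 was 50.0% to 71.4% in experiments 1 to 7 and 4.26% to 10.7% in experiments 8 to 10, and that for Ccnd3 17.9% to 64.3% and 0% to 3.57%. Neither overlapped, whereas Ccnd1 was at 0% in experiments 1, 8 and 9. Between the 6 experiments with H3K4me3, the share ran from 0% to 100% for Ccne1 and from 0% to 60.9% for Ccnd3. Experiments 8 to 10 were set apart after the data had been seen, and Pou5f1 alone does not single them out, so these differences have no test.

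The inhibitors did not share 1 pattern. Cdkn1a had shares like those of the cyclins, with 12.4% of cells in experiments 1 to 7, 28.6% with H3K4me3 and 0 of 165 cells in experiments 8 to 10, which allows a share of up to 1.82%. By experiment with H3K4me3, its share ran from 0% to 63.6%. Cdkn1b was read in 17.1% of cells in experiments 1 to 7, in 20.0% in experiments 8 to 10 and in 0.476% with H3K4me3. Cdkn2a was read in 4.71%, 24.2% and 0.476% of cells of the same sets. Both came at few reads, 125 in all for Cdkn1b and 84 for Cdkn2a with H3K27me3, beside 8868 for Ccne1. Cdkn2b was read in 0 of 210 cells with H3K4me3, which allows up to 1.43%. The shares of Cdkn1b ranged from 0% to 87.5% between H3K27me3 experiments, with 7 of 8 passing cells of experiment 2 and no passing cell of experiments 3, 4 and 5. Depth differed widely between experiments. Proximal and distal cells summed to 54144 and 116961 counts in experiment 4 and to 307786 and 452882 in experiment 5. In experiment 8 they summed to 15434438 and 12160702. A share of 0 in experiments 4 and 5 thus says little about so low a gene.

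**Figure D5:**
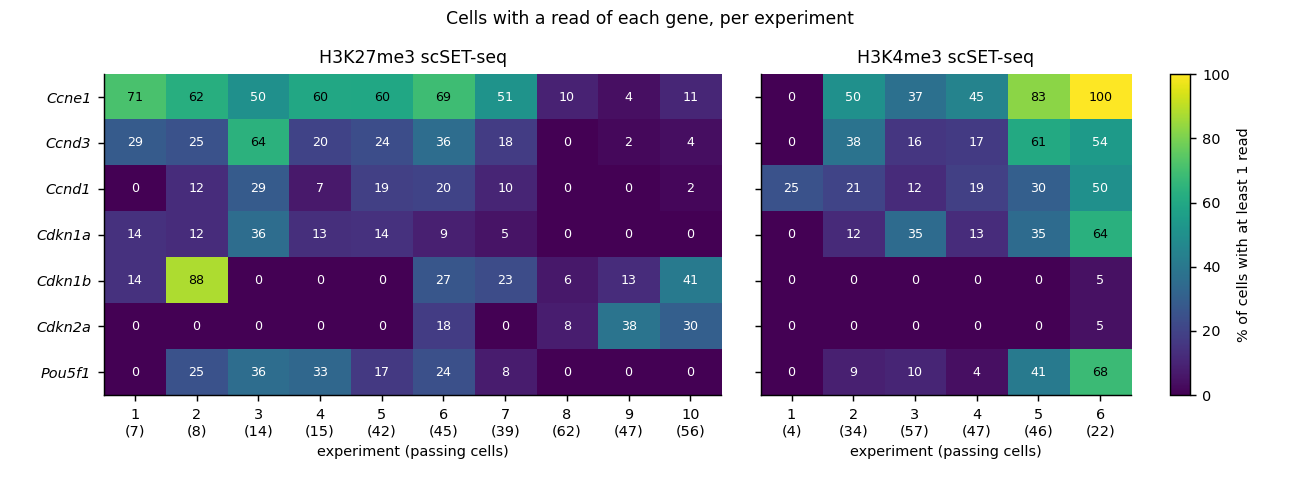
Percent of passing cells with at least 1 read (colour and number) for Ccne1, Ccnd3, Ccnd1, Cdkn1a, Cdkn1b, Cdkn2a and the marker Pou5f1, by experiment of both single-cell tables, with the number of passing cells in brackets. H3K27me3 experiments 8 to 10 have few cells with Ccne1, Ccnd3, Ccnd1 or Cdkn1a and none with Pou5f1, while Cdkn1b and Cdkn2a are read in some of their cells.

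Reads were held by few cells. With H3K27me3, the tenth of cells with the most reads of Ccne1 held 98.3% of them, and for Ccnd3 the share was 99.5%. For Cdkn1b and Cdkn2a it was 77.6% and 83.3%. A gene read in few cells has a high share by that alone, and depth ran from 5364 to 2020096 reads per cell. These shares are therefore not read as a trait of the genes. At least 1 D cyclin was read in 82 of 335 cells with H3K27me3 and in 99 of 210 with H3K4me3, an E cyclin in 116 and 121, and an inhibitor in 111 and 61. No member at all was read in 132 and 49 cells, and the median was 1 member per cell in both tables.

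Proximal and distal daughter cells were compared by sums per experiment, in 14 experiments with at least 3 passing cells of each position. In edgeR, blocked by experiment, 0 of 7 members tested and 0 of 13086 genes (0.0%) were called, with 1194 genes at an unadjusted p below 0.05 and 62 called by DESeq2. Ccnd3 had a median of 0.689 CPM in proximal and 26.8 CPM in distal cells and was lower in proximal cells in 11 of 14 experiments. Some of these sums rest on few reads. H3K27me3 experiments 8 to 10 held 6 reads of Ccnd3 in 3 cells, and the proximal cells of H3K27me3 experiment 4 had 54144 counts in all. The sums of Ccnd3 overlapped widely, at 0 to 578 and 0 to 184 CPM, and its log2 fold change of -1.61 (interval -3.63 to 0.41) did not pass (adjusted p = 0.723). Without H3K27me3 experiments 8 to 10, it was -2.18 (adjusted p = 0.555). Ccne1 had medians of 86.7 and 90.6 CPM, was higher in proximal cells in 9 experiments and lower in 5, and had a log2 fold change of 0.87 (-0.59 to 2.33). A change within these intervals was not detectable here.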

How the data were processed

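Gene expression was analysed in 54 bulk libraries and in the 2 single-cell tables. For the bulk libraries, the authors trimmed reads with Trim Galore 0.6.4, aligned them to mm9 with STAR 2.5.4b (tools and versions per the labels' processing notes) and counted read pairs on exons with featureCounts (2.0.0 in the file headers, except that the 4 KO files name a later version, so that version and KO cannot be told apart), and the deposited values are raw counts without normalization. For single cells, the deposited values are raw read counts on exons and introns from zUMIs, without molecular identifiers. Rn45s, a precursor rRNA, was left out of totals and tests here. Genomic libraries were not used here.

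The members and the gene lists were chosen with earlier results of these data known. All 9 members are named, with up to 4 genes of a pathway list, those called with the largest fold change, and the 3 genes most like each member. Bulk comparisons used edgeR 4.0.16 (TMM, its filter on low counts, quasi-likelihood test) in R 4.3.3, fitted on all genes, with calls at a Benjamini-Hochberg adjusted p below 0.05. The standard error is the log2 fold change divided by the root of F, and intervals are 95% intervals from it. KO against WT took the mean of both clones against H3K27me3 SET-seq of 10000 cells. Alternatives were DESeq2 1.42.0, its size factors, no filter, Rn45s kept, a replicate block, other reference libraries, calls by an unadjusted p (0.05) and a log2 fold of 1 either way, and each replicate left out, where a library left alone takes its spread from the remaining groups. The comparisons of 30 with 5 min were added after the values had been seen. Cells with 1000 genes or fewer, or 5000 or more, were left out. Positions came from the study's list of cells, and counts were summed per experiment and position over at least 3 cells and tested with the experiment as a block. Cluster labels, made from the expression of the same cells, were not used. The tests were checked on simulated data with 200 changed genes. Fewer genes were changed there than were called in most bulk comparisons, so the check does not cover changes that broad. Depth was 188275 to 16888686 counts per library without Rn45s, so members under about 10 CPM rest on few counts in the shallow libraries. Figures used Python 3.11.15 with matplotlib 3.10.9.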

Additional observations from a re-analysis of the deposited data

Results flagged for a closer look

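Among 30 groups of single-cell experiments, 10 held an experiment far from all others by Dixon's criterion. Its rate of about 1 of 20 groups under chance presumes normally distributed values and cannot be set beside these 10. Cdkn1b and Cdkn2a had no read in 5 of 6 experiments with H3K4me3, so a read in the other was bound to be flagged. CPM and share of cells of the same gene also counted as separate groups. With H3K27me3, experiment 2 stood apart in Ccnd2 (148 CPM) and in the share of cells with Cdkn1b (87.5%, of 8 cells), and experiment 3 in Ccnd3 (261 CPM) and Cdkn1a (153 CPM and 35.7% of 14 cells). The Ccnd2 value rests on 1 cell with 1439 reads. With H3K4me3, experiment 2 was the far one for Ccne2 (0.996 CPM), and experiment 6 for Cdkn1b (0.488 CPM, 4.55% of 22 cells) and for Cdkn2a (0.976 CPM, 4.55% of cells), each of the last pair from 1 cell.

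The KO clones differed by test in Ccnd3 (log2 fold change of KO1 against KO2 -0.87) and in Ccne1 (-0.66). The change from 5 to 30 min differed between 37 °C and 16 °C in Ccnd1 (-0.94) and in Ccnd3 (1.35).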

How the results depend on the processing

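Of 910 values of members under alternatives, 834 stayed called in the same direction or stayed uncalled, 58 lost the call, 9 gained it and 9 changed sign. Signs were compared only where at least 1 of the fits called the member, so values uncalled in both may also have changed sign. The 9 signs changed for KO against in vitro libraries of 37 °C and 5 min (Ccnd1 -0.25, Ccnd3 0.19, Cdkn1b -2.69) or of 300 ng (Ccnd1 -0.30, Cdkn1a -0.26, Cdkn1b -1.15) in place of WT, and for SET-seq against ligation-based libraries (Ccnd2 -2.03, Ccnd3 -0.05, Cdkn1a 0.47). The cause was not tested.

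DESeq2 called 3625 genes for KO against WT, 529 between the clones (1 member), 224 for 10 against 10000 cells and 62 for position. The rule of an unadjusted p and a fold gave 2857 for KO against WT, 664 between the clones (1 member), 1046 for temperature (3 members), 5559 for in vitro against ligation (5 members), 39 between antibodies, 1385 for antibody against none (0 members), 1964 for cell number, 442 for 30 against 5 min at 16 °C, 574 for its difference between temperatures (1 member) and 1194 for position. Without the filter, KO1 against KO2 called 1 member, antibody against none 1 member, cell number 177 genes and position 24. WT of 100, 1000 and 10000 cells gave 2 members called and the 37 °C in vitro reference 1. At 5 min alone, temperature called 3367 genes. Ligation-based libraries as total RNA gave 9078 genes and 8 members. With all cells, position called 8 genes. With Rn45s kept, the mean level of Ccnd1 was 29.0 and of Cdkn1a 88.0 RPKM.

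With each library left out in turn, or all libraries of 1 replicate number for antibody against none, counts ranged from 3607 to 5777 for KO against WT (lowest without WT replicate 2), from 311 to 1791 for KO1 against KO2 (0 to 3 members; lowest without KO1 replicate 2, highest without KO2 replicate 1), from 1614 to 3695 for antibody against none (0 to 1 members), from 0 to 4113 for cell number (0 to 1 members; highest without 10 cells replicate 1), from 673 to 1008 for 30 against 5 min at 16 °C and from 132 to 393 for its difference between temperatures (1 to 2 members).

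In the libraries of the comparisons tested, same-numbered deviations had correlations of -0.128 to 0.287, so their replicates were taken to share only a number. The Tn5 amounts, whose replicates stood apart, entered no test. With the replicate as a block, KO against WT called 5107 genes, KO1 against KO2 824 (1 member), temperature 7479, antibody against none 4688 (2 members) and cell number 13, and the position test without its block 55. Depth limits Ccnd2, Ccne2, Cdkn2a and Cdkn2b most: they had 1069 to 2018 counts each over 54 libraries.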
